A study of Bos taurus with 16 samples.

Results

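IGF2R and IGF1R encode the cell-surface receptors that bind insulin-like growth factors (IGFs), and their CpG methylation was mapped here site by site. Every site that the deposited table labels with the symbol IGF2R or IGF1R was taken, whatever its level. This gave 437 of 199395 sites, of which 244 belonged to IGF2R and 193 to IGF1R. IGF2R (ENSBTAG00000002402) was covered from chr9:96197579-96298843 and IGF1R (ENSBTAG00000021527) from chr21:7781427-8078448 in ARS-UCD1.2, so the measured sites spanned 101264 bp and 297021 bp.

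IGF1R is a receptor tyrosine kinase that binds IGF1 and IGF2 and passes on a growth and survival signal. IGF2R, the cation-independent mannose-6-phosphate receptor, takes IGF2 up for breakdown and sorts lysosomal enzymes, and it has no kinase of its own. IGF2R is imprinted in cattle and many other mammals. It is expressed mainly from the maternal allele, and a CpG island inside the gene is methylated on that allele only, so that a cell with one copy of each parent carries methylated and unmethylated DNA side by side. In the uterus both receptors belong to the system by which IGFs reach the endometrium and the early embryo.

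The libraries were made by reduced representation bisulfite sequencing (RRBS), which reads methylation near MspI cut sites, from DNA of endometrial cells that were brushed from the uterus of multiparous Holstein-Friesian cows, which had been inseminated between days 50 and 64 postpartum and were sampled 4 to 8 h later. Cows received a control diet (CON) or, from day 12 postpartum, the same diet with rumen-protected methionine (RPM; MET), and each group was split by whether the insemination led to pregnancy (P) or no pregnancy (noP). The resulting groups, CON_P, CON_noP, MET_P and MET_noP, hold 4 libraries each. The study's methods name more cytobrush samples than libraries in each group, and how the samples were divided among the libraries is not given in the sources used here, so p-values measure the spread between libraries. A brushing holds several cell types, so that a change of level within cells and a change in the mix of cells cannot be told apart. The methylation of marker genes, which is not their expression, overlapped between all 4 groups in leukocyte genes (6 of 8 listed genes with at least 2 sites, library means of 46.0 to 61.1%), in epithelial genes (2 of 6, 15.3 to 29.03%) and in stromal genes (3 of 4, 42.4 to 50.5%). The leukocyte genes had a higher mean in MET_P, with a median difference of 6.59 points from MET_noP (5 of 6 genes higher) and of 4.49 points from CON_P (4 of 6), beside 0.28 and 0.53 points over all genes. The leukocyte means were 55.9% in MET_P (libraries 53.7 to 58.2%) and 54.0% in CON_P (48.2 to 61.1%). None of the genes passed after adjustment. SPI1, a transcription factor of myeloid cells, had an unadjusted p under 0.05 between MET_P and CON_P (72.0 and 62.8%, adjusted p = 0.673 by limma), as 7.26% of all genes had. In that comparison ITGB2 (34.9 and 39.4%) and LCP1 (22.7 and 31.1%) were lower in MET_P. The part of the cell mix in any difference was not tested.

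The values are percentages of methylated calls, without the read counts, so the depth behind a site is unknown beyond the minimum of 10 counts that the authors required. Sequencing depth differed between the groups. By the study's averages, MET_P had the most raw reads and the most mapped CpGs, and MET_noP the most bases after trimming. The part of depth in any difference between groups was not tested. Positions at 0 in any library were discarded by the authors, which removes the least methylated sites of both genes from view. A site or a group of sites is called intermediate where its mean over the 16 libraries lay between 30 and 70%. The table gives a gene symbol and a position, but neither exons, introns, promoters, strand nor allele, and none of these was analysed here.

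IGF2R was methylated in 3 parts. At the low-numbered end, the first 3 sites had means of 8.03, 7.12 and 12.5%, with no library above 22.2%. The next cluster of sites, 2977 bp from the first site, was at 94.2% already. From there the gene was highly methylated except in 1 dense stretch that began 23781 bp from the first site and a few other sites beyond it. Over all 244 sites, 130 (53.3%) were intermediate, 96 (39.3%) were above 80% and 3 (1.23%) were below 20%. The whole table had 19.95% intermediate sites, 48.3% above 80% and 17.4% below 20%.

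IGF1R was distributed differently. Of its 193 sites, 142 (73.6%) were above 80%, 26 (13.5%) were intermediate and 3 were below 20%. Its mean level was 81.4%, against 65.2% in IGF2R and 63.4% over all sites. IGF2R held the 3rd largest number of intermediate sites of 8719 genes with at least 2 sites, after PTPRN2 with 227 and GNAS with 134. Among the 107 genes with at least 100 sites it also had the 3rd highest share of intermediate sites, after GNAS with 94.4% and MAMLD1 with 63.9%. GNAS is another imprinted gene and MAMLD1 lies on chromosome X, where one copy is inactivated in females. IGF1R was 112th by the number and 73rd by the share of intermediate sites.

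**Figure D1:**
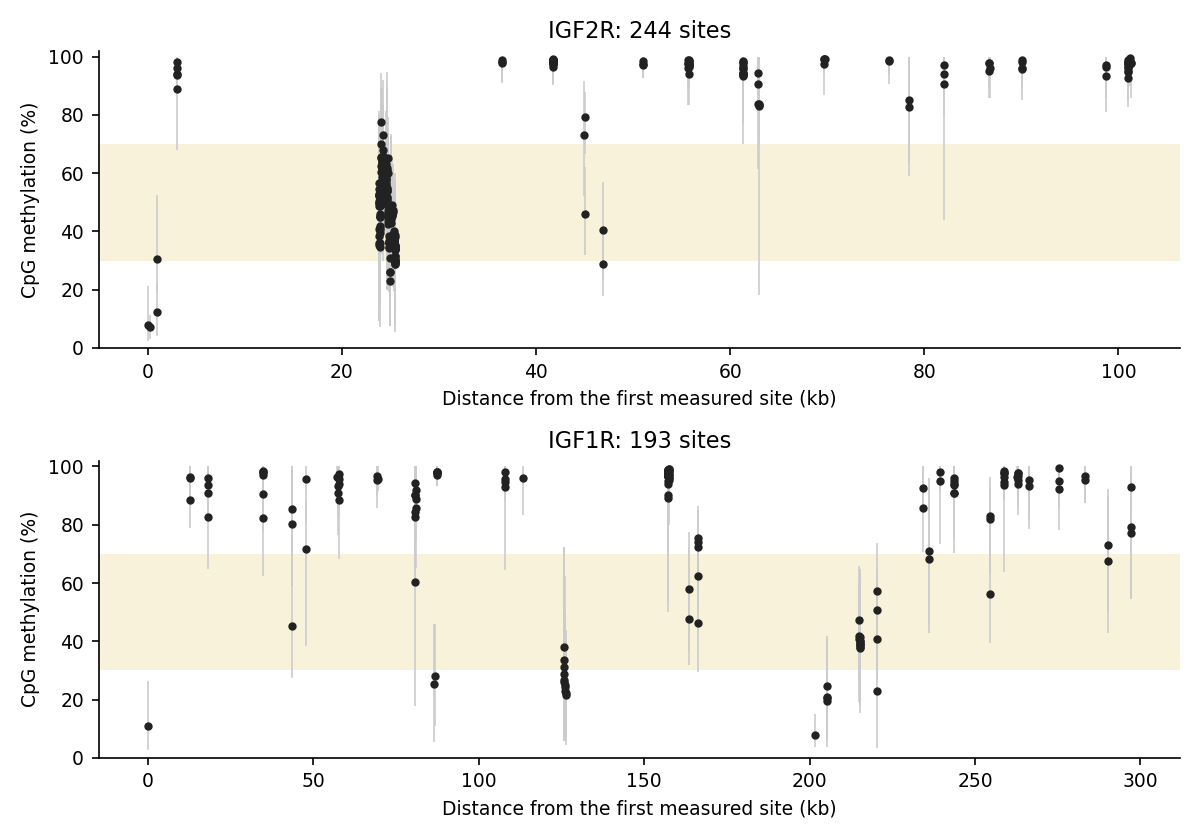
CpG methylation (%) of the 244 IGF2R and 193 IGF1R sites against distance from the first measured site (kb). Points are means over 16 libraries, grey bars run from the lowest to the highest library, and the shaded band marks 30 to 70%; IGF2R shows 1 dense column of intermediate sites, while the sites of IGF1R below 80% are scattered over the gene.

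Sites at most 100 bp apart were joined into clusters of at least 3 sites, by position only. IGF2R had 17 clusters with 234 of its sites. Of these, 14 clusters with 92 sites were above 80%, at means of 86.5 to 98.8%. The remaining 3 clusters held 142 sites and were intermediate, and no cluster of IGF2R was below 30%. IGF1R had 26 clusters with 171 sites, of which 16 clusters with 131 sites were above 80%, 5 with 22 sites were intermediate, 3 were below 30% and 2 lay between 70 and 80%. Of all 27325 clusters in the table, 5644 (20.7%) were intermediate.

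The intermediate stretch of IGF2R lay at chr9:96221360-96223066 and held 139 sites in 1707 bp. It consisted of a cluster of 49 sites (chr9:96221360-96221856) and a cluster of 90 sites (chr9:96222078-96223066), whose nearest sites were 222 bp apart. The 90-site cluster had more sites than any of the other intermediate clusters of the table, and 5 intermediate clusters had more sites than the 49-site cluster. Of the 17 intermediate clusters with at least 40 sites, 2 were these clusters of IGF2R and 5 lay on chromosome X. Whether the stretch is the allele-specific island known from other work was not tested, since the table holds neither alleles nor an annotation of islands.

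Within the stretch the mean over all sites and libraries was 45.8%. Single sites ranged from 22.9 to 77.6%, and 127 of the 139 were intermediate, 9 were below 30% and 3 above 70%. The mean of the stretch lay between 30 and 70% in each library by itself, at 38.8 to 54.6%. Of its 139 single sites, 69 to 136 (49.6 to 97.8%) lay in that range, depending on the library. The 49-site cluster had a mean of 53.1% and the 90-site cluster of 41.9%. The 49-site cluster was the more methylated one in every library, by 2.01 to 22.0 percentage points with a median of 11.7. In windows of 250 bp the level started at 49.03%, reached 61.5% between 250 and 500 bp, was still 52.8% between 750 and 1000 bp, dropped to 32.6% between 1000 and 1250 bp, came back to 45.8% and ended at 34.3%. The stretch was therefore not even, and the steepest step lay between the adjacent windows at 52.8 and 32.6%.

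The spread between libraries in both clusters was below the median for clusters at this level. The SD over 16 libraries was 6.43 percentage points in the 49-site cluster, with libraries from 40.7 to 62.4%, and 4.87 points in the 90-site cluster, with libraries from 34.7 to 50.9%. The median SD of all intermediate clusters was 8.78 points. An average over many sites varies less, and against the 17 intermediate clusters with at least 40 sites, whose median SD was 5.72, the IGF2R clusters were not set apart: 5 of the 17 had a smaller SD than the 90-site cluster and 9 had a smaller SD than the 49-site cluster. Single intermediate sites of IGF2R had a median SD of 10.7 points, against 11.7 points over all intermediate sites of the table. In the stretch, 11 pairs of adjacent positions can be the 2 strands of one CpG. Their 2 means over all 16 libraries differed by a median of 5.17 points and by at most 7.5. Within groups the gaps were often wider and not of one sign. In each pair the second position was the higher one in CON_noP and the lower one in MET_noP. At 96223047 and 96223048 the means were 23.0 and 39.5% in CON_noP and 33.5 and 27.2% in MET_noP. The 2 positions of a pair therefore did not agree within groups as closely as over all libraries.

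**Figure D2:**
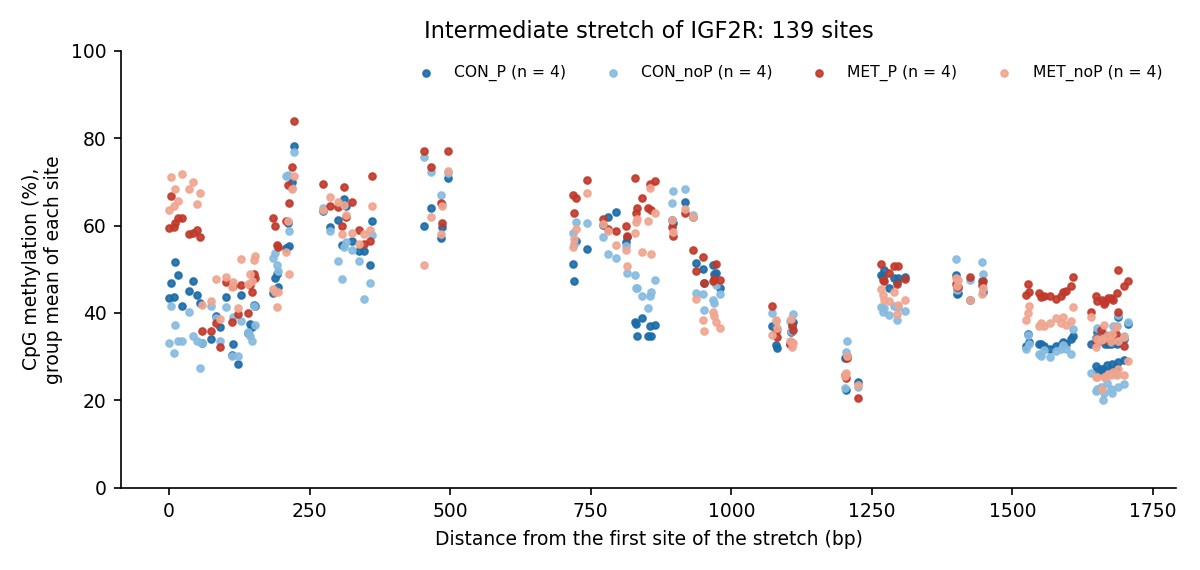
Group means (n = 4 libraries each) of CpG methylation (%) at each of the 139 sites against distance from the first site of the stretch (bp). The level is highest between 250 and 500 bp and lowest between 1000 and 1250 bp, and the group means lie close together between 1000 and 1250 bp.

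The study asked how the methylation of the endometrium at breeding relates to pregnancy and to RPM. Mean methylation of the 139 sites was 50.2, 42.3, 41.5 and 39.2% in the 4 CON_P libraries and 38.8, 39.4, 47.9 and 43.6% in the 4 CON_noP libraries. It was 54.6, 48.8, 48.2 and 51.5% in MET_P and 50.2, 43.0, 48.1 and 46.2% in MET_noP. The 2 CON groups overlapped almost entirely. The MET_P libraries lay high, all at 48.2% or more, but 1 CON_P library, at 50.2%, was within their range, and the MET_noP libraries overlapped with both MET_P and CON_noP. The group means were 42.4% ± 4.23 in CON_noP, 43.3% ± 4.82 in CON_P, 46.9% ± 3.09 in MET_noP and 50.8% ± 2.94 in MET_P (SD, n = 4).

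Gene means of IGF2R followed the stretch, which holds most of its sites. By library they were 67.2, 63.7, 62.5 and 61.6% in CON_P, and 61.7, 61.4, 66.1 and 64.2% in CON_noP. In MET_P they were 70.4, 66.7, 66.5 and 68.6%, and in MET_noP 67.7, 64.4, 65.8 and 65.4%. The group means were 63.3% ± 2.25 in CON_noP, 63.7% ± 2.46 in CON_P, 65.8% ± 1.39 in MET_noP and 68.0% ± 1.84 in MET_P (SD, n = 4), and libraries overlapped in each of the 4 comparisons. In limma on M values (log2 of methylated over unmethylated percent), fitted over 8719 genes with Benjamini-Hochberg adjustment, no comparison passed the threshold of 0.05. CON_P was 0.386 percentage points above CON_noP (log2 difference 0.02 ± 0.13, SE; adjusted p = 0.9998 by limma), and the sign turned, to -0.737 points, once the libraries were centred on the same median. MET_P was 2.20 points above MET_noP (0.14 ± 0.11; adjusted p = 0.911 by limma). For RPM, MET_P was 4.31 points above CON_P (0.27 ± 0.13; adjusted p = 0.693 by limma) and MET_noP was 2.5 points above CON_noP (0.15 ± 0.12; adjusted p = 0.869 by limma). The outcome effects under the 2 diets differed by 1.81 points (interaction, adjusted p = 0.941 by limma), and 5.4% of all genes but not IGF2R or IGF1R had an unadjusted p under 0.05 for it.

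A contrast of all 8 MET with all 8 CON libraries was added after these values were seen, and it uses the same libraries again. IGF2R was 3.4 points higher in MET (log2 difference 0.21 ± 0.08, SE; adjusted p = 0.510 by limma), with an unadjusted p under 0.05, as 8.77% of all genes had in this contrast. The whole table was shifted in the same direction, with a median site difference of 0.52 points, and after the libraries were centred on the same median the difference of IGF2R was 2.45 points (adjusted p = 0.673 by limma). In the 49-site cluster the MET libraries were 8.53 points higher (0.49 ± 0.19; adjusted p = 0.662 by limma), with an unadjusted p under 0.05 as in 7.23% of all clusters, and in the 90-site cluster 4.56 points (0.27 ± 0.17; adjusted p = 0.757 by limma).

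The 2 clusters of the stretch differed in which groups were high. In the 49-site cluster the CON_P libraries were at 56.0, 52.2, 49.5 and 41.2% and the CON_noP libraries at 46.4, 40.7, 52.7 and 52.0%. The MET_P libraries were at 61.5, 56.9, 53.2 and 59.1% and the MET_noP libraries at 55.4, 51.0, 62.4 and 59.3%. Both MET groups thus lay mostly above both CON groups, with overlap in each of the 4 comparisons. In the 90-site cluster MET_P, with 50.9, 44.4, 45.5 and 47.4%, lay above all but the highest library of each other group, whereas MET_noP, with 47.4, 38.6, 40.3 and 39.0%, was in the range of CON_P (47.1, 36.8, 37.2 and 38.1%) and CON_noP (34.7, 38.7, 45.4 and 39.0%). MET_P exceeded MET_noP by 5.72 points in the 90-site cluster and by 0.637 points in the 49-site cluster (adjusted p = 0.934 and 0.995 by limma). The difference of MET_P from CON_P was 7.24 and 7.96 points in the 90-site and 49-site clusters (adjusted p = 0.769 and 0.764 by limma), and that of MET_noP from CON_noP was 1.88 and 9.09 points (adjusted p = 0.973 and 0.871 by limma). Whether the 2 clusters differ in these effects was not tested.

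**Figure D3:**
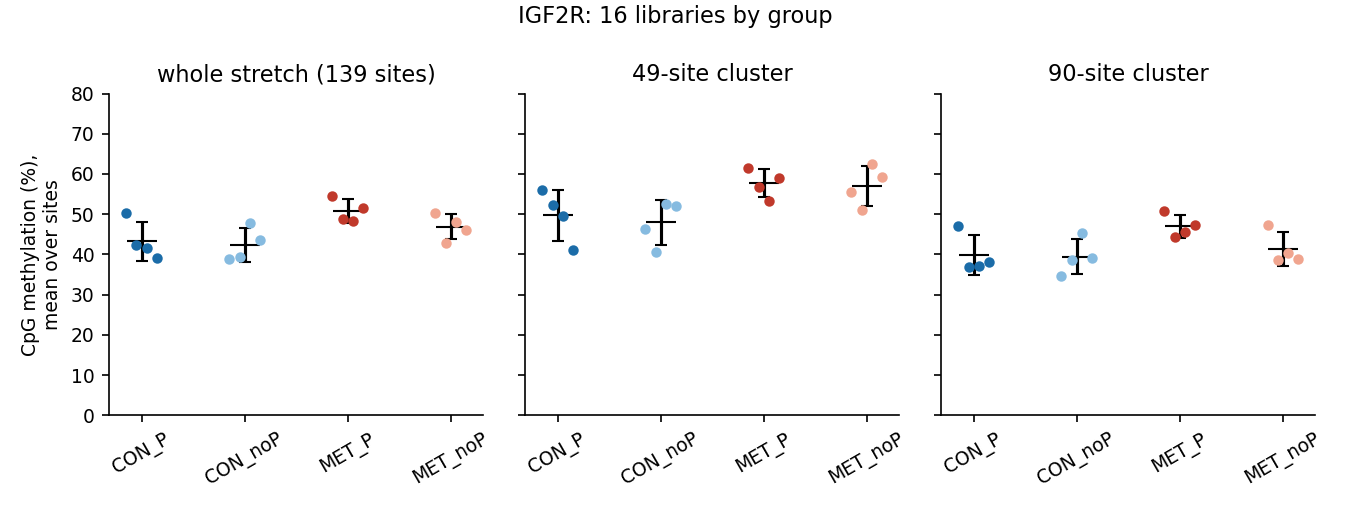
Mean CpG methylation (%) of the IGF2R stretch and of its 49-site and 90-site clusters in each of 16 libraries by group. Points are libraries, and bars give the mean and SD (n = 4); MET_P libraries lie at 48.2 to 54.6% over the stretch, above all CON libraries except 1 of CON_P at 50.2%.

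Along the stretch the group means moved apart in some windows and not in others. In the first 250 bp they were 42.7% ± 5.75 in CON_noP, 44.8% ± 7.72 in CON_P, 54.9% ± 6.44 in MET_noP and 53.8% ± 1.57 in MET_P (SD, n = 4). Between 500 and 750 bp, where only 4 sites were measured, they ran from 52.4% ± 9.93 in CON_P to 66.7% ± 2.94 in MET_P. Between 1000 and 1250 bp all 4 groups were at 32.0 to 34.1%. In the last window, with 37 sites, MET_P was at 41.6% ± 2.52, against 31.9% ± 7.89 in CON_P, 30.4% ± 6.52 in CON_noP and 33.3% ± 5.59 in MET_noP. These windows were not tested.

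Site by site, no site of either gene passed the adjusted threshold in any of the 4 comparisons, where the lowest adjusted p was 0.405 (limma). In each of them the test called 0 of all 199395 sites, 0 of all 27325 clusters and 0 of all 8719 genes. The absence of calls is therefore not particular to IGF2R and IGF1R, and the study's test on counts did call sites in each comparison. In the interaction the lowest adjusted p of both genes was 0.938 (limma), and 2 sites elsewhere in the table passed (0.001% of all sites). Between CON_P and CON_noP, 3 of 244 IGF2R sites and 6 of 193 IGF1R sites had an unadjusted p under 0.05, where 3.93% of all sites did. None of those 3 IGF2R sites was in the stretch. Between MET_P and MET_noP the counts were 19 and 15, where 5.12% of all sites had one, that is 7.79% of IGF2R sites and 7.77% of IGF1R sites. For RPM, 16 and 15 sites had one between MET_P and CON_P (5.83% of all sites), and 17 and 13 between MET_noP and CON_noP (5.13% of all sites). All these shares lay within 3 points of the share in the table. In the contrast of all MET with all CON libraries, 30 IGF2R sites (12.3%) and 9 IGF1R sites (4.66%) had an unadjusted p under 0.05, where 6.05% of all sites did, and 28 of the 30 were higher in MET, as were 3.84% of all sites, 24 of them in the stretch.

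Sites whose 2 groups of libraries did not overlap were counted in the same way. Between CON_P and CON_noP there was 1 in each gene, where 1.99% of all sites had no overlap. Between MET_P and MET_noP there were 19 in IGF2R and 6 in IGF1R (2.9% of all sites). All 19 of IGF2R were in the stretch, which is 13.7% of its 139 sites, and 18 of them were higher in MET_P (1.64% of all sites were higher there without overlap). At the 11 pairs of adjacent positions near the end of the stretch, MET_P and MET_noP stood apart mainly at the second position. At 96223019 the means were 42.9 and 22.7%, and at 96223018, next to it, 36.2 and 33.9%. The gaps there were thus mostly on 1 of the 2 positions of a pair. Between MET_P and CON_P there were 21 and 7 (3.09% of all sites), of which 18 were in the stretch and all 18 were higher in MET_P (1.92% of all sites). Between MET_noP and CON_noP there were 14 and 6 (2.75% of all sites), of which 12 were in the stretch and 11 were higher in MET_noP (1.85% of all sites). MET_P was the higher group at 115 of the 139 sites (82.7%) in the comparison with CON_P, with a median difference of 7.03 points. Over all sites the values were 53.6% and 0.36 points. MET_P was above MET_noP at 89 of the 139 sites (64.0%, against 51.8% of all sites). MET_noP was above CON_noP at 89 as well (64.0%, against 57.3% of all sites). MET_P libraries enter both of their comparisons. Neighbouring sites are read from the same fragments, so these counts are of sites and not of independent observations.

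Single sites showed larger differences than the averages, with wide spread. At chr9:96221383, near the start of the stretch, methylation was 63, 69.6, 80 and 75% in MET_noP and 35.3, 25, 47.1 and 26.9% in CON_noP. The means were 71.9% ± 7.32 and 33.6% ± 10.04 (SD, n = 4; adjusted p = 0.486 by limma). The neighbouring sites at 96221369 and 96221375 differed by 33.7 and 32.2 points in the same direction. These 3 sites were picked from those where no library of one group entered the range of the other, so their separation was set by the choice. Site 96221415, which was not picked, had means further apart than 96221383, at 67.6% in MET_noP and 27.5% in CON_noP.

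In the 90-site cluster the widest gaps lay between MET_P and CON_P at chr9:96222188, 96222215 and 96222225. At 96222225 the MET_P libraries were at 89.5, 60.6, 62.5 and 67.9% and the CON_P libraries at 30.8, 38.1, 35.3 and 45%. The means were 70.1% ± 13.3 and 37.3% ± 5.96 (adjusted p = 0.827 by limma), and the other 2 sites differed by 32.8 and 32.5 points. Between MET_P and MET_noP the widest gaps were at 96221813, 96223048 and 96223059. At 96223048 the MET_P libraries were at 60, 51.3, 43.6 and 44.9% and the MET_noP libraries at 38.7, 15.4, 28.9 and 25.7%. At 96221813 they were at 78.9, 74.1, 72.7 and 82.2% and at 60.9, 44, 30 and 69.2%. The adjacent positions of the other 2 sites did not repeat these gaps. At 96223047, next to 96223048, the means were 40.3% in MET_P and 33.5% in MET_noP. At 96223058 they were 32.4 and 34.6%, in the opposite order to 96223059 (46.3 and 25.8%). The study lists 96221813 and 96223048 among its differentially methylated CpG sites, so both were chosen on these same libraries. Between CON_P and CON_noP the only IGF2R site without overlap was 96239369, in a highly methylated cluster, at 94.4% ± 2.79 and 98.9% ± 1.34.

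Outside the stretch and the low-numbered end, most of IGF2R was nearly fully methylated. The third intermediate cluster, chr9:96242546-96242620 with 3 sites, had a mean of 66.2% and libraries from 56.1 to 75.5%, and its site at 96242620 was at 46.0%. The 14 high clusters had SDs of 0.693 to 5.16 points between libraries. Among all 17 clusters, the number with an unadjusted p under 0.05 was 0 between CON_P and CON_noP (3.59% of all clusters), 3 between MET_P and MET_noP (5.3%), 0 between MET_P and CON_P (6.65%) and 0 between MET_noP and CON_noP (5.71%), and none passed after adjustment. The 3 were highly methylated clusters of 3 to 6 sites, whose differences, MET_P minus MET_noP, were -7.93, 6.36 and 4.25 points (adjusted p = 0.918 each by limma).

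IGF1R had no stretch like that of IGF2R. Its densest cluster, chr21:7938563-7938830 with 65 sites, was at 97.3% with an SD of 0.744 points and libraries between 95.9 and 98.3%. Its 24 pairs of adjacent positions differed by a median of 0.534 points. Gene means were 81.2% ± 0.565 in CON_noP, 82.0% ± 1.66 in CON_P, 81.1% ± 1.68 in MET_noP and 81.3% ± 0.815 in MET_P (SD, n = 4). None of the 4 comparisons differed by more than 0.801 points, and their lowest adjusted p was 0.924 (limma).

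Methylation below 75% in IGF1R was found in 10 small clusters of 3 to 8 sites. Of these, 3 lay close together, from 125722 bp after the first site. The cluster at chr21:7907149-7907196 had a mean of 32.7%, with libraries from 12.01 to 72.2% and an SD of 15.5 points. Of the 4709 intermediate clusters with 3 to 8 sites in the table, 96.5% had a smaller SD. The clusters at chr21:7907345-7907356 and chr21:7907641-7907678 were at 28.9 and 23.2% with SDs of 12.1 and 11.8 points. One CON_P library was among the highest at all 3 clusters, with 54.9, 50 and 49.2%, while the highest value of all, 72.2% at the first cluster, came from a MET_noP library that was at 24.7% in the third.

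Further along the gene, the cluster at chr21:7986742-7986780 was at 21.5%, the clusters at chr21:7996313-7996349 and chr21:7996681-7996715 at 43.3 and 39.3% with SDs of 11.2 and 11.7 points, and the cluster at chr21:8001827-8001884 at 49.6% with an SD of 6.74 points. The clusters at 43.3 and 39.3% are neighbours but did not rank the libraries alike, since a CON_noP library was at 61.6% in the first and at 19.04% in the second. The cluster at chr21:7947677-7947760 was steadier, at 66.1% with an SD of 5.81 points. In each of these 5 clusters the libraries overlapped in all 4 comparisons.

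**Figure D4:**
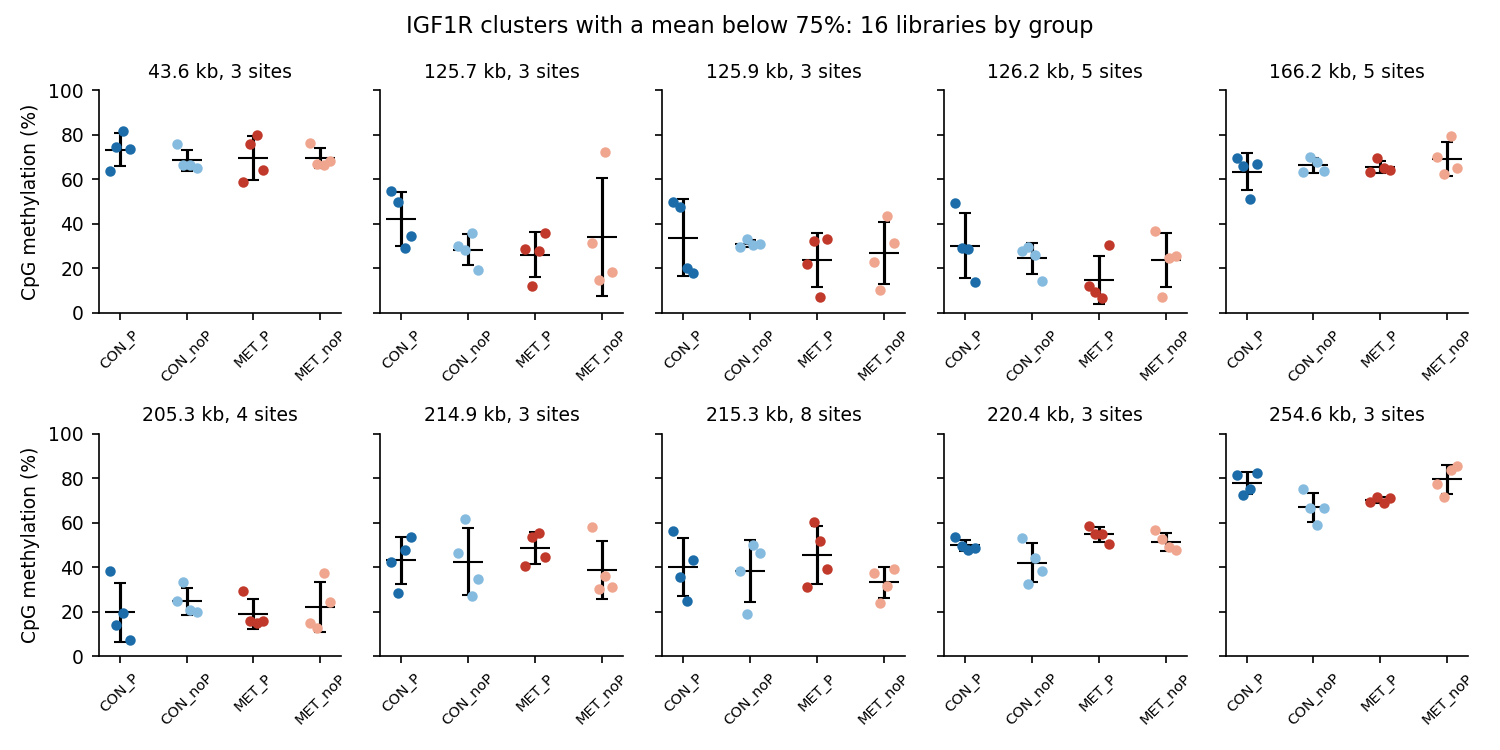
CpG methylation (%) of the 10 IGF1R clusters with a mean below 75% in each of 16 libraries by group, each panel headed by the distance from the first measured site. Points are libraries, and bars give the mean and SD (n = 4); the MET_noP libraries run from 14.7 to 72.2% in the panel with the widest spread, and compared groups overlap in all panels but that of the cluster at 73.7%, where MET_P lies below CON_P and MET_noP.

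Single sites of IGF1R were low at its first measured position, chr21:7781427, with a mean of 11.0%, at 7983161 with 7.86% and at 7986780 with 19.6%. As in IGF2R, the lowest-numbered end of the gene was thus little methylated, but only 1 site was measured there.

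Between MET_P and CON_P, 2 of the 3 clusters at chr21:7907149-7907678 had an unadjusted p under 0.05. Both were lower in MET_P, the cluster of 3 sites at 26.1% ± 10.04 against 42.1% ± 12.3 and the cluster of 5 sites at 14.7% ± 10.9 against 30.2% ± 14.6 (SD, n = 4; adjusted p = 0.751 for both by limma). In all, 3 of the 26 clusters of IGF1R (11.5%, where 6.65% of all clusters did) had such a p in this comparison. The count was 2 between CON_P and CON_noP (7.69%, against 3.59% of all clusters), 2 between MET_P and MET_noP (7.69%, against 5.3%) and 4 between MET_noP and CON_noP (15.4%, against 5.71%). Their libraries did not overlap in 0, 1, 2 and 2 clusters between CON_P and CON_noP, MET_P and MET_noP, MET_P and CON_P, and MET_noP and CON_noP, where 2.13, 3.28, 3.67 and 3.25% of all clusters had no overlap, and none passed after adjustment.

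In some clusters the outcome groups stood in opposite order under the 2 diets. How many clusters of the whole table did so was not counted, so this order is not shown to be particular to these genes. At chr21:7907149-7907196, CON_P minus CON_noP was 13.8 points and MET_P minus MET_noP was -8.04 points. The 3-site cluster at chr21:8036020-8036047 had the lowest unadjusted p for the interaction among the 43 clusters of both genes (0.00281 by limma). The CON_P libraries were at 81.6, 72.5, 75.3 and 82.6% and the CON_noP libraries at 75.4, 66.7, 59.3 and 66.5%. The MET_P libraries were at 69.3, 71.6, 68.8 and 71.4% and the MET_noP libraries at 77.3, 71.6, 83.6 and 85.8%. CON_P was 11.0 points above CON_noP (adjusted p = 0.9998 by limma), with overlap. MET_P was below MET_noP (difference -9.32 points; adjusted p = 0.918 by limma), without overlap, although the nearest libraries were both at 71.6%. Both differences had an unadjusted p under 0.05. The interaction was -20.4 points (adjusted p = 0.885 by limma). After adjustment 1 cluster elsewhere in the table passed for the interaction (0.00366% of all clusters). Of all clusters, 5.44% had an unadjusted p under 0.05 for the interaction, and 2 of the 26 in IGF1R and 0 of the 17 in IGF2R did.

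**Figure D5:**
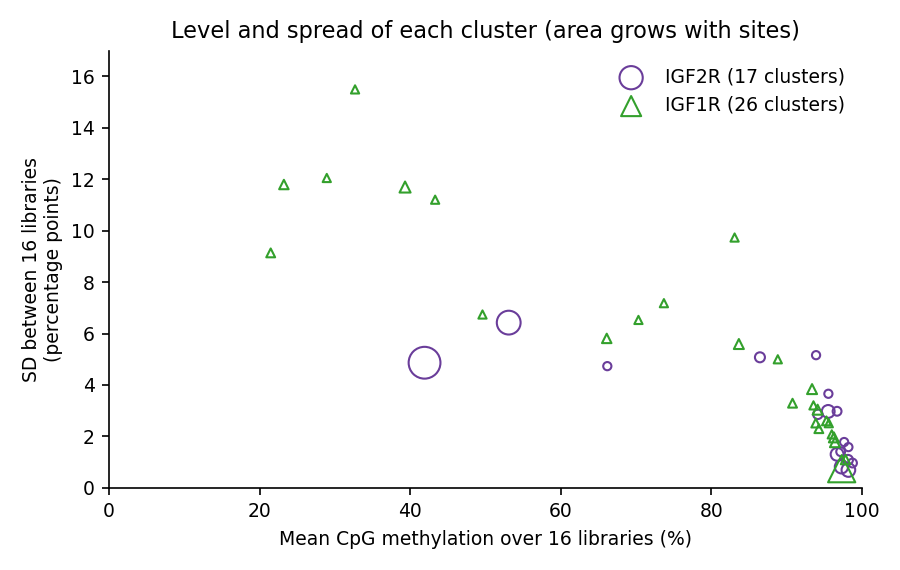
SD between the 16 libraries (percentage points) against mean CpG methylation (%) for the 17 clusters of IGF2R and the 26 of IGF1R, with symbol area growing with the number of sites. The 2 large IGF2R clusters lie at SDs of 4.87 and 6.43 points, below the small IGF1R clusters at 23.2 to 43.3%, whose SDs are 11.2 to 15.5 points.

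Single sites of IGF1R without overlap between groups were few. Between MET_P and CON_P the largest differences were at the sites 7868086 and 7868058, which are 28 bp apart on chromosome 21 and were lower in MET_P. At 7868086 the MET_P libraries were at 19.7, 16.3, 21.6 and 26.3% and the CON_P libraries at 46.0, 33.3, 44.0 and 27.7% (means 21.0% ± 4.15 and 37.8% ± 8.71; adjusted p = 0.827 by limma). At 8001827 both comparisons with CON_noP had no overlap: CON_noP was at 32.4% ± 4.96, CON_P at 45.3% ± 9.22 and MET_noP at 42.2% ± 4.03. The other named sites were at 79.4% or more in both groups of their comparison.

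The study also lists 5 sites of IGF1R as differentially methylated between MET_P and MET_noP, again chosen on these libraries. At the adjacent positions chr21:7938736 and 7938737, in the 65-site cluster, 2 of the 4 MET_P libraries were at 58.7 and 53.6% and at 59.3 and 50%, while the other two were at 93.5% or more. All 4 MET_noP libraries were at 93.3% or more at both positions. A CON_P library was low at both as well, with 57.6 and 78.5%. The MET_P means of 76.0% ± 23.1 and 76.6% ± 25.7 therefore lay between a low and a high pair of libraries. At 7938591, 1 MET_P library was at 67.7% and the other 3 at 98.9% or more. At 8024976 and 8078448 MET_P was the higher group, with 97.2% ± 2.45 against 83.6% ± 10.3 and 89.5% ± 7.17 against 73.6% ± 14.4, and the libraries of the groups overlapped. From its test on counts, the study's text names IGF1R and IGF2R among genes with increased methylation in MET_P. At the listed sites 7938591, 7938736 and 7938737 the MET_P mean was the lower one, with differences of -5.67, -21.3 and -20.1 points.

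Other genes of the IGF system were taken from a list of 31, of which 22 had at least 2 sites. Their gene means passed the adjusted threshold in none of the 4 comparisons. The number with an unadjusted p under 0.05 was 0 between CON_P and CON_noP (3.5% of all genes), 2 between MET_P and MET_noP (5.59%), 2 between MET_P and CON_P (7.26%) and 1 between MET_noP and CON_noP (6.39%), all higher in the first group, as 3.67, 5.47 and 4.75% of all genes were in the last 3 comparisons. These were SHC1, an adaptor of receptor tyrosine kinases, and IGF2BP3, which binds IGF2 mRNA, between MET_P and MET_noP, AKT1, a kinase downstream of IGF1R, and IGF2BP3 between MET_P and CON_P, and PAPPA, the protease that frees IGFs from IGFBP4, between MET_noP and CON_noP. IGF2BP3, with 2 sites only, was at 17.1% ± 3.50 in MET_P, 7.94% ± 3.35 in MET_noP, 7.63% ± 3.4 in CON_P and 12.1% ± 3.59 in CON_noP (SD, n = 4). AKT1 was at 80.3% ± 2.60 in MET_P and 73.6% ± 3.28 in CON_P, SHC1 at 56.7% ± 3.45 in MET_P and 50.3% ± 2.81 in MET_noP, and PAPPA at 79.2% ± 1.24 in MET_noP and 75.3% ± 0.814 in CON_noP.

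The first group had the higher mean in 12, 12, 17 and 15 of the 22 genes. The median difference of the 22 genes was 0.18, 0.42, 1.07 and 0.57 points in the 4 comparisons, beside 0.44, 0.28, 0.53 and 0.63 points over all genes. In the added contrast of all MET with all CON libraries, 4 of the 22 (18.2%) had an unadjusted p under 0.05, where 8.77% of all genes did. These were AKT1, PAPPA, SHC1 and IGFBP4, all higher in MET, and none passed after adjustment. The largest other differences were in genes with few sites. IRS1, the adaptor that IGF1R phosphorylates, had 3 sites at 68.8% ± 13.98 in CON_P, 57.0% ± 10.5 in CON_noP and 56.1% ± 6.98 in MET_P. IGFBP4, which holds IGFs in the extracellular space, had 2 sites at 40.2% ± 18.8 in MET_P, 25.6% ± 5.78 in CON_P, 37.0% ± 11.5 in MET_noP and 27.5% ± 6.0 in CON_noP. IGF2BP1, another binder of IGF2 mRNA, had 17 sites at 39.5% ± 6.73 in MET_noP and 35.0% ± 4.21 in CON_noP. None of these passed the test. IGF2, the ligand that both receptors bind, had 63 sites and a mean of 36.7%, with group means of 36.1 to 37.4%.

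Of 16 other imprinted genes on a list, IGF2 included, 10 had at least 2 sites. GNAS resembled the IGF2R stretch, with 134 of 142 sites intermediate and a mean of 40.0%, and its group means were 36.3% ± 6.74 in CON_noP, 37.7% ± 5.41 in CON_P, 42.4% ± 3.91 in MET_noP and 43.5% ± 3.56 in MET_P. MEST had 11 of 19, DLK1 16 of 27 and SGCE 3 of 3 sites at this level, KCNQ1 had 63 of 340, and PEG3 had 1 of 62. No gene mean of this list passed after adjustment in the 4 comparisons, and 1 had an unadjusted p under 0.05. This was MEST between MET_noP and CON_noP, with 37.2% ± 6.71 and 26.1% ± 8.01 (SD, n = 4; adjusted p = 0.757 by limma), where 6.39% of all genes had such a p. In the added contrast of all MET with all CON libraries, 2 of the 10 (20%) had one, where 8.77% of all genes did. MEST was 8.79 points and GNAS 5.97 points higher in MET (adjusted p = 0.507 and 0.524 by limma). The higher level of IGF2R in MET was thus shared by GNAS, the gene most like its stretch.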

How the data were processed

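The 16 reduced representation bisulfite sequencing libraries of endometrial cytobrush samples were compared, 4 libraries for every combination of diet (CON, MET) and outcome (P, noP). The authors trimmed reads with Trim Galore, aligned them to bisulfite-converted ARS-UCD1.2 with Bismark and merged runs with SAMtools. The deposited table holds the percent methylation of 199395 cytosine positions per library, from SeqMonk with a minimum of 10 counts per position, and the authors discarded positions without a valid value or at 0 in any library. Coverage per site is not given, so no interval for counting error was computed. The study reports average depth by group, which differed, but how depth differed between libraries was not analysed here. Strands were not merged. Columns were assigned to groups by name, and no value column was left unmapped.

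Sites labelled IGF2R or IGF1R were taken. The members, gene lists and marker lists were chosen with earlier results of these data known. Clusters were sites of one symbol at most 100 bp apart, with at least 3 sites. Percentages were turned into M values, log2((percent + 1) / (101 - percent)), and tested with limma 3.58.1 in R 4.3.3 with Benjamini-Hochberg adjustment at 0.05 over all 199395 sites, 27325 clusters or 8719 genes with at least 2 sites. Each comparison used its 8 libraries, and the interaction and the pooled diet contrast used all 16. The study tested counts by logistic regression, which percentages do not allow. The fits were tested on simulated data. Named sites were, per gene and comparison, up to 3 with the largest difference of means among those without overlap, and the positions that the study lists. Of the IGF list, genes with an unadjusted p under 0.05 and the 2 largest differences per comparison were named. Alternatives were untransformed percentages, an offset of 0.1, moderation with trend, 1 model for all libraries, centring on the same median, a block of library sets, merged strands, other cluster and level limits, sites of 10 to 90% and each library left out. Python 3.11.15, numpy 2.4.6, pandas 2.3.3 and matplotlib 3.10.9 were used for summaries and plots.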

Additional observations from a re-analysis of the deposited data

Results flagged for a closer look

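Over the 2 gene means and all 43 clusters, 180 groups of 4 libraries were examined for a library far from the other 3. This was so in 13 groups, where chance alone sets about 1 group in 20 apart. Clusters are given by the position of their first site.

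In the 90-site cluster of IGF2R, 1 CON_P library was at 47.1% and the other 3 were at 36.8 to 38.1%. In the IGF1R cluster at chr21:7986742, 1 MET_P library was at 29.4% and the other 3 were at 15 to 16%. At chr21:7824989 a CON_noP library was at 75.8%, against 65.3 to 66.7% in the rest of its group. At chr21:7862423 a MET_P library was at 80%, below the 89.2 to 90.9% of the others.

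The other 9 were in clusters above 90%. In IGF2R, single MET_P libraries were low at chr9:96239308 (96.9%, others 98.3 to 98.4%), 96253221 (96.8%, others 97.9 to 98.1%) and 96279629 (91.2%, others 98.1 to 98.5%), and 1 was high at 96298551 (98.2%, others 96.3 to 96.6%). A CON_noP library was low at 96258857 (89.5%, others 96.0 to 96.3%). In IGF1R, a MET_P library was high at chr21:7794163 (95.2%, others 92.8 to 93.1%), and a CON_noP library was high at 7868825 (100%, others 97.6 to 98%). At 7889380 a CON_noP library was high (97.2%, others 95.2 to 95.5%) and a MET_noP library was low (87.1%, others 94.3 to 95.2%).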

How the results depend on the processing

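The text's 87 results were recomputed under 1452 alternatives, of which 1411 kept the direction and the side of the threshold. For the gene means, clusters and sites named in the text, the lowest adjusted p over 962 alternatives was 0.204 (limma). Over all member sites, with an offset of 0.1 percentage points, 1 site of each gene passed the threshold: chr21:7938667 in IGF1R between MET_P and CON_P (97.9% ± 0.554 against 100% in all 4 libraries; adjusted p = 0.00312, and 0.686 with the offset of 1), and chr9:96258902 in IGF2R between MET_noP and CON_noP (100% in all 4 against 95.8% ± 2.27; adjusted p = 0.00620, and 0.405 with the offset of 1). Both have a group at the upper limit of the scale, where the offset sets the M value. After the libraries were centred on the same median, the difference between CON_P and CON_noP was -0.737 points for the IGF2R gene mean and -0.453 for its 90-site cluster, the interaction of the IGF1R gene mean was 0.0812, and the pooled diet difference of the 65-site cluster of IGF1R was -0.191. Restricted to sites of 10 to 90%, the IGF1R gene mean differed by -0.0981 points between MET_P and MET_noP and by 0.511 between MET_noP and CON_noP. Centring moved the median difference over all sites from 0.355 to -0.364 points between MET_P and CON_P, from 0.708 to -0.101 between MET_noP and CON_noP and from 0.519 to -0.252 for the pooled diet contrast, and the share of higher sites among those with an unadjusted p under 0.05 from 52.5 to 36.7%, from 65.5 to 48.6% and from 63.4 to 38.1%. The share of intermediate sites was 27.5% in IGF2R and 7.25% in IGF1R with limits of 40 to 60%, and 19.2% in IGF1R with limits of 25 to 75%.

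When single libraries were left out, the sign of small differences turned. For the gene means the ranges were -0.766 to 1.32 points in IGF2R between CON_P and CON_noP, and in IGF1R -0.556 to 0.703 between MET_P and MET_noP, -1.18 to 0.0345 between MET_P and CON_P, -0.550 to 0.709 between MET_noP and CON_noP, -1.36 to 0.124 for the interaction and -0.633 to 0.0306 for the pooled diet contrast. The 49-site cluster gave -0.639 to 4.63 between CON_P and CON_noP, -1.36 to 2.41 between MET_P and MET_noP and -3.99 to 1.28 for the interaction. The 90-site cluster gave -2.09 to 2.33 for CON_P minus CON_noP and -0.154 to 3.85 for MET_noP minus CON_noP. The 65-site cluster of IGF1R gave -0.186 to 0.169 for the pooled diet contrast, and its site at 7938591 gave -8.45 to 2.30 between MET_P and MET_noP. Without a turn of sign, the IGF2R gene mean ranged from 1.41 to 2.82 between MET_P and MET_noP and from 0.876 to 2.96 for the interaction, the 49-site cluster from 5.10 to 10.04 between MET_P and CON_P, and the 90-site cluster from 3.396 to 7.81 for the interaction. The pooled diet difference of the IGF2R gene mean ranged from 3.01 to 3.98, and a block of library sets with consecutive numbers, which the labels do not describe as pairs, gave an adjusted p of 0.552. The study matched cows in pairs by expected calving date, parity and earlier milk yield and then drew the diet at random. No paired analysis was possible, because neither the labels nor the columns say which libraries hold matched cows. The diet comparisons therefore leave this matching out. The cause of these changes was not tested. Percentages without coverage, 4 libraries a group and shared reads between neighbouring sites limit what single sites can show.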
